A study of Mus musculus with 15 samples.

Results

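The comparison described here sets brain messenger RNA from mice given the treatment labelled JU after occlusion of the middle cerebral artery (MCAO) against that from mice given vehicle after the same occlusion. It rests on 3 JU and 3 vehicle libraries, which are 6 of the 15 libraries of the series. Of 18931 genes in the count table, 14877 had at least 10 counts in 3 or more of these 6 libraries and were compared. The other groups, with 3 libraries each, were occlusion with the treatments labelled JA and UA, and a sham operation. All mice were of the Kunming stock, an outbred laboratory mouse, and all libraries were labelled brain. The labels do not spell out JA, UA or JU. The study's title names jasminoidin, an iridoid glucoside of gardenia fruit, with the bile acid ursodeoxycholic acid, and concerns their joint action in ischemia and reperfusion. The sources used here give no brain region, hemisphere, dose, route, sampling time, age or sex, and do not say whether each library is a different mouse. The p-values therefore measure how far these samples spread, and that spread may be technical.

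When a cerebral artery is blocked, neurons in its territory die first, and microglia, the resident immune cells of the brain, then switch from surveillance to clearing debris. Astrocytes around the lesion build up intermediate filaments, blood-borne macrophages and fibroblasts enter it, and phagocytes that have taken up myelin store its lipid in droplets. In bulk tissue, fewer cells of a type and less RNA per cell cannot be told apart, and this holds for every cell type named below.

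Total counts of the 6 libraries ran from 18678857 to 20447465, with 16563 to 17052 genes detected, and levels are given as CPM, counts as a share of the library total, scaled for composition. A count of 3, taken as the floor of detection, corresponded to 0.147 to 0.161 CPM and covers counting error only. The tissue label fits its markers in all 6 libraries: Snap25, a synaptic vesicle fusion protein of neurons, stood at 763 CPM or more, Mbp, a structural protein of myelin, at 3348 or more, and Slc1a2, the main glutamate transporter of astrocytes, at 1846 or more. JU replicate 1 lay far from the other JU libraries. On the first principal component of all 15 libraries, which held 68.8% of the variance, JU replicates 1, 2 and 3 lay at 127, -33.3 and 0.0149, vehicle replicates 1, 2 and 3 at 26.96, 83.0 and 29.6, and sham libraries between -39.8 and -38.5. JU replicate 1 thus lay on the far side of the vehicle libraries from sham, and the other JU libraries on the near side. The 10 most abundant genes took 7.57% of its counts, against 3.003% and 3.02% in JU replicates 2 and 3. Fold changes and list medians are therefore given with and without this library.

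No gene passed in the comparison of JU with vehicle. With all libraries, 0 of 14877 genes (0%) had an adjusted p under 0.05 in edgeR's quasi-likelihood test, in either direction, and the smallest adjusted p was 1.0. An unadjusted p under 0.05 was found for 293 genes (1.97%), of which 194 were higher (1.3%) and 99 lower (0.665%) in JU. DESeq2 called 2 genes, and limma's voom called 0 without and 25 with weights for library quality. Those weights were 0.0565, 0.678 and 4.07 for JU replicates 1, 2 and 3, so the JU side of every weighted value rests mostly on JU replicate 3. Vehicle replicate 2 had a weight of 0.265. Leaving out JU replicate 1 lowered the biological coefficient of variation, the spread between replicates beyond counting error, to 16.4%, against 26.7% with it. 1 gene, Col10a1, then passed (0.00672%), and 3364 genes (22.6%) had an unadjusted p under 0.05, with 1525 higher (10.3%) and 1839 lower (12.4%) in JU.

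The opposite positions of the JU libraries recurred gene by gene. JU replicate 1 was above all 3 vehicle libraries for 6197 genes (41.7%) and below all 3 for 5667 (38.1%). For 2398 genes (16.1%) it lay above all vehicle libraries while JU replicates 2 and 3 both lay below them, and for 2165 (14.6%) the reverse held. All 3 JU libraries lay above all vehicle libraries for 365 genes (2.45%) and below them for 270 (1.81%). A group fold change from such counts follows the arithmetic mean, so that 1 library with a very high value sets it. For this reason the levels of each library are given first below, always in the order of replicates 1, 2 and 3.

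**Figure D1:**
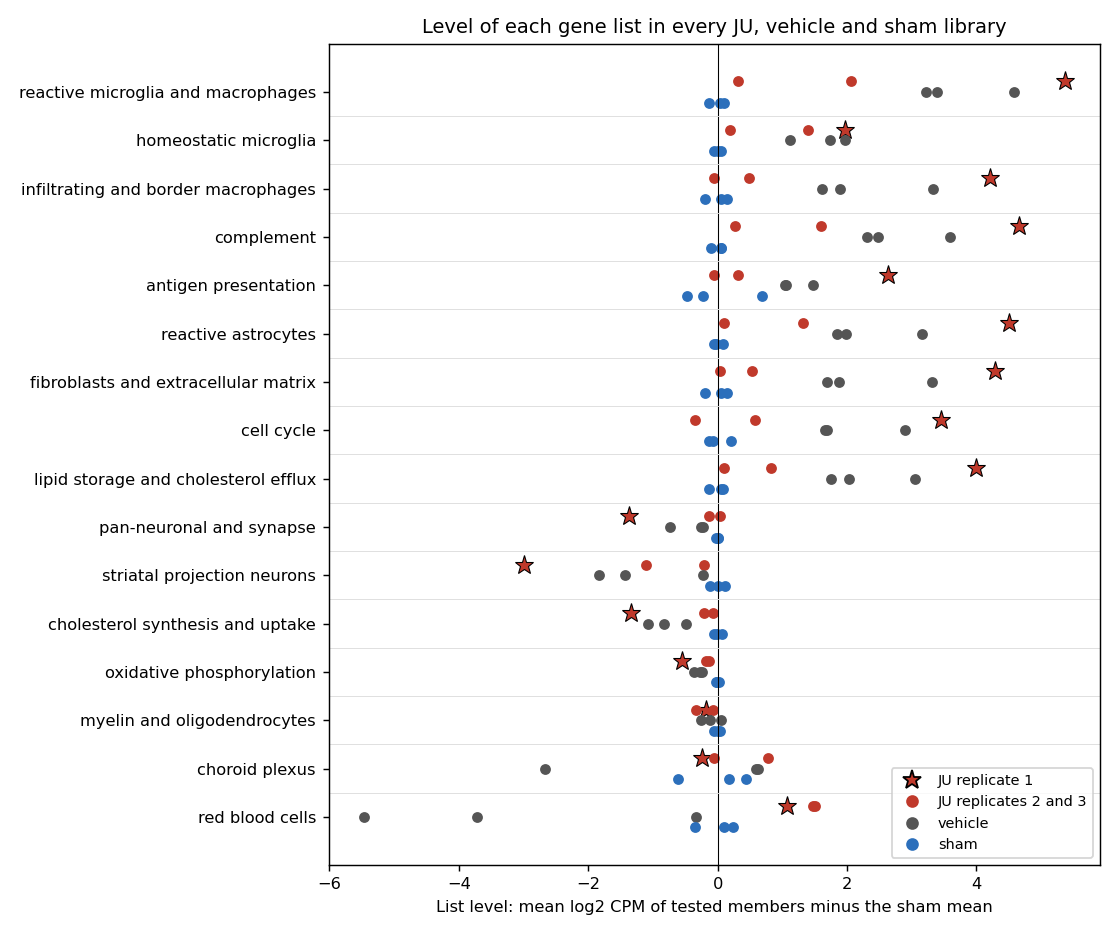
Level of 16 gene lists (rows) in each JU, vehicle and sham library. The horizontal axis is the mean log2 CPM of a list's tested members minus its sham mean, the star is JU replicate 1 and each other point is 1 library. For reactive microglia, JU replicate 1 stands at 5.37, to the right of the vehicle libraries, and JU replicates 2 and 3 at 0.32 and 2.06, to their left. Red blood cell transcripts are the list in which the 3 JU libraries lie together above all vehicle libraries.

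Red blood cell transcripts were the gene list on which the JU libraries lay together above vehicle; in each other list at most 1 tested gene had all JU libraries above all vehicle libraries. Hemoglobin carries oxygen as a tetramer of alpha and beta chains around heme, and Alas2 makes the first precursor of heme in erythroid cells. Young red cells keep some of this RNA after losing their nucleus, so brain tissue that holds blood carries it. Of 5 listed genes 4 were tested, and for all 4 each JU library lay above each vehicle library, against 2.45% of all genes tested and 4.27% that did not overlap in either direction. These 4 are transcripts of the same cell type and rose and fell together over the vehicle libraries, so they are not 4 separate observations. The list was chosen with earlier results of these data known. All 4 had an unadjusted p under 0.05 with and without JU replicate 1, beside 1.3% and 10.3% of all genes that were higher at that p, and 0 passed after adjustment. The median log2 fold change of the list was 3.10, and 3.25 without JU replicate 1, beside medians over all genes of 0.03 and 0.00.

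The promoters of a beta-globin gene, an alpha-globin gene and Alas2 are shown because these genes lay together in every JU library. Each runs from 250 bases before the transcript start to 50 after it, as given by RefSeq for GRCm38.p6, and reads 5′ to 3′ on the gene's own strand. Capitals mark exact matches, on either strand, to 4 motifs known from textbook globin promoters. These are the CACCC box, the box spelled CCAAT, the GATA-type motif AGATAA and the TATA-type motif ATATAA. Hbb-bs lies at chr7:103827879-103828178 (minus strand), Hba-a1 at chr11:32283422-32283721 (plus strand) and Alas2 at chrX:150547167-150547466 (plus strand).
Hbb-bs: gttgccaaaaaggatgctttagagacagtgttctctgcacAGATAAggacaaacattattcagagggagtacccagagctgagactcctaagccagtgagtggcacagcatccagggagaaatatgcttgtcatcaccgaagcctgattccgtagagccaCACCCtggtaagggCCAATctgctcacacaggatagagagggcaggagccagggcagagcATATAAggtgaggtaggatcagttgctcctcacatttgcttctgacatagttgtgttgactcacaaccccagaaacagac
Hba-a1: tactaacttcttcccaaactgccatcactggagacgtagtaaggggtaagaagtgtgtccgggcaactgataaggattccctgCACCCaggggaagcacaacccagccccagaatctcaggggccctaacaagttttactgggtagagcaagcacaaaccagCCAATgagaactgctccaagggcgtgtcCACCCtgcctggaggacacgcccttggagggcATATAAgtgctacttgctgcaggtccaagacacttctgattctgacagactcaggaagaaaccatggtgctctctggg
Alas2: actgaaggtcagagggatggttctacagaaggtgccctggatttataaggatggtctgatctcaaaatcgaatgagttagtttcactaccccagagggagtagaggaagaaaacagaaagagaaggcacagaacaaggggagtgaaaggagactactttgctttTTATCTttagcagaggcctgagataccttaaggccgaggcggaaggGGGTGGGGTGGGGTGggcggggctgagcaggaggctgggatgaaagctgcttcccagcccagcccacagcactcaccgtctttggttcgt

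CACCC lay in all 3 sequences, with 1 match in Hbb-bs from 90 bases before the start, 2 in Hba-a1 and 3 adjoining matches on the reverse strand of Alas2. CCAAT was found in Hbb-bs and Hba-a1, as was ATATAA, which begins 30 and 28 bases before their starts. AGATAA was found in Hbb-bs and, on the reverse strand, in Alas2. These short motifs are common: among 32851 mouse promoters in windows of the same length, 57.5% held CACCC, 37.4% CCAAT, 11.2% AGATAA and 9.82% ATATAA. A match describes letters and not a bound site.

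Hbb-bs, an adult beta-globin gene (chromosome 7, 103826523 to 103827928, GRCm38.p6), stood at 218, 313 and 293 CPM in JU replicates 1 to 3, against 7.44, 1.94 and 86.4 CPM in vehicle replicates 1 to 3. The lowest JU library was above every library of the other groups, the highest of which was UA replicate 3 at 163 CPM, and sham ran from 82.7 to 118 CPM. JU averaged 275 ± 49.9 CPM and vehicle 31.9 ± 47.3 (SD, n = 3 each), a log2 fold change of 3.10 ± 1.09 (SE, unadjusted p = 0.0145, edgeR). Relative to their mean, the vehicle libraries spread far more than those of JU or sham, while the SDs of JU and vehicle in CPM were close. Without JU replicate 1 the fold change was 3.24 ± 1.19 (adjusted p = 0.184). Without vehicle replicate 3, the highest of its group, it was 5.87.

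Hba-a1, an adult alpha-globin gene (chromosome 11, 32283672 to 32284486), stood at 119, 126 and 145 CPM in JU, against 4.74, 1.94 and 41.8 in vehicle (log2 fold change 3.005 ± 0.95, unadjusted p = 0.00799, and 3.06 ± 1.04 without JU replicate 1). Hbb-bt, the second adult beta-globin gene (chromosome 7, 103812524 to 103813923), stood at 34.4, 46.2 and 50.5 CPM in JU and at 0.663, 0.146 and 11.9 in vehicle (3.36 ± 1.10, unadjusted p = 0.00986, and 3.50 ± 1.15 without JU replicate 1). Alas2 (chromosome X, 150547417 to 150570622) had 12.9, 21.8 and 16.9 CPM in JU and 0.612, 0.0486 and 5.36 in vehicle (3.09 ± 1.09, unadjusted p = 0.0150, and 3.25 ± 1.12 without JU replicate 1). Vehicle libraries stood in the same order for all 4 genes, with vehicle replicate 2 lowest, under the floor of detection for Hbb-bt and Alas2, and vehicle replicate 3 within or just under the sham range. JA replicate 1 was as low as the low vehicle libraries, with 2.86 CPM of Hbb-bs and 0.0502 CPM of Alas2. Leaving out vehicle replicate 3 moved the median of the list to 5.78. Summed over the list, JU held 386 to 527 CPM, vehicle 4.13 to 146 and sham 145 to 211. Hba-a2, a near-identical copy of Hba-a1, was not tested; it reached 20.03 CPM in JU replicate 2 and 8.68 in sham replicate 2 and was at most 0.912 CPM elsewhere, and reads of the copies could have been assigned to either. The same holds for Hbb-bs and Hbb-bt, whose sequences are also very close.

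Markers of other blood cells did not separate the groups in this way. The neutrophil list, of which 5 of 10 genes were tested, stood at list levels of 2.38, -0.43 and 1.29 in JU and 0.76, 1.97 and 0.60 in vehicle, relative to sham on the log2 scale. That of T, B and NK cells, with 3 of 12 tested, stood at 0.37, -0.01 and 0.07 in JU and 0.47, 0.70 and -0.25 in vehicle. Of these 3 genes, 1 had all JU libraries below all vehicle libraries, beside 1.81% of all genes. It was Cd79a, with 0.355, 0.328 and 0.496 CPM in JU and 0.765, 0.874 and 0.719 in vehicle. Its log2 fold change was -0.98 (unadjusted p = 0.0191, edgeR), and -0.91 without JU replicate 1. On both list levels the JU and vehicle libraries overlapped. Endothelial and blood-brain barrier genes stood at 0.56, 0.07 and -0.01 in JU and -0.11, 0.22 and 0.13 in vehicle, also overlapping. The part that the blood content of the samples has in the red cell values was not tested.

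**Figure D2:**
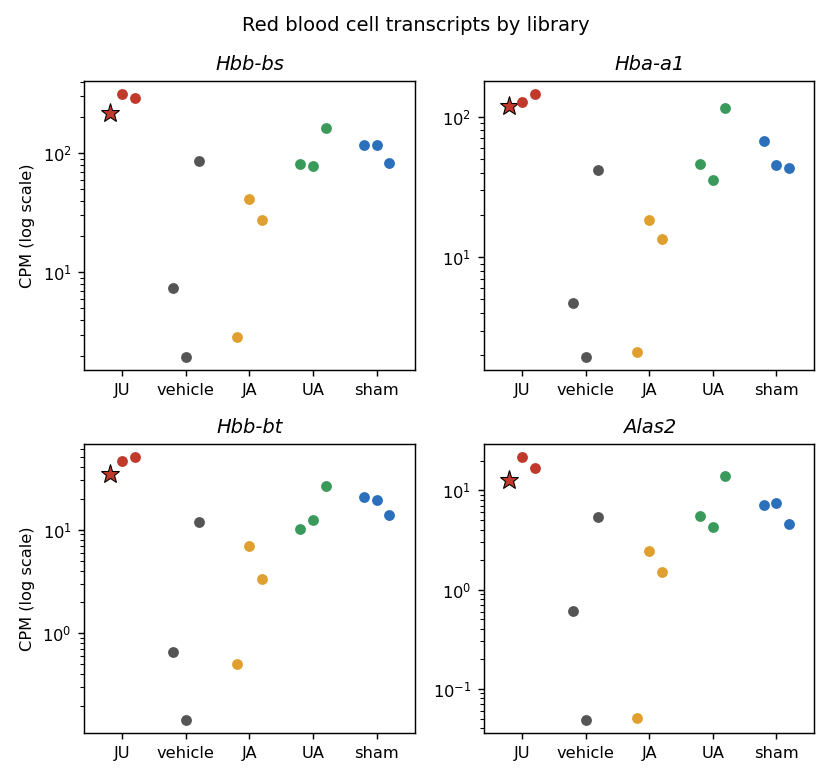
CPM (log scale) of 4 red blood cell genes in every library, 1 point per library and the star for JU replicate 1. The JU points lie together, from 218 to 313 CPM for Hbb-bs, above the vehicle points, which run from 1.94 to 86.4 CPM.

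Slc25a37, mitoferrin, which carries iron into mitochondria for heme synthesis (chromosome 14, 69241848 to 69285544), had the smallest p of the named genes higher in JU. It stood at 27.9, 30.5 and 30.03 CPM in JU, against 23.5, 19.3 and 21.99 in vehicle and 23.99 to 28.5 in sham. The JU and vehicle libraries did not overlap, while 2 of the 3 sham libraries lay between them. The log2 fold change was 0.45 ± 0.09 (unadjusted p = 0.000454, edgeR), and 0.49 ± 0.10 without JU replicate 1. DESeq2 gave it an adjusted p of 0.0455 and voom with quality weights 0.0425, while edgeR gave 1.0 with all libraries and 0.182 without JU replicate 1. It is no part of the red blood cell list.

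The other genes with the smallest p among those whose JU and vehicle libraries did not overlap differed by small amounts. Of the 9 further genes named as higher in JU, log2 fold changes ran from 0.25 to 1.26. Zfp366, a zinc finger repressor known from dendritic cells (chromosome 13, 99184823 to 99247032), stood at 4.86, 5.20 and 5.01 CPM in JU, against 3.11, 2.48 and 3.16 in vehicle and 2.80 to 3.45 in sham (log2 fold change 0.78 ± 0.17, unadjusted p = 0.000577, and 0.81 ± 0.20 without JU replicate 1). JU was thus above both vehicle and sham, with its 3 libraries close together. Rasa2, which switches Ras off (chromosome 9, 96539300 to 96631612), stood at 25.02, 32.1 and 27.8 CPM in JU, against 22.3, 18.9 and 21.5 in vehicle and 30.4 to 34.8 in sham (0.44 ± 0.10, unadjusted p = 0.00111, and 0.52 ± 0.10 without JU replicate 1). Here vehicle was below the other groups, as it was for Rps6ka3, the growth factor kinase RSK2, at 67.4, 59.3 and 61.7 CPM in JU, 50.9, 46.9 and 50.3 in vehicle and 68.8 to 77.0 in sham. Vgll3, a cofactor of TEAD transcription factors, had the largest fold change of the 10 but the widest JU spread, with 9.57, 6.40 and 3.43 CPM in JU against 2.09, 2.77 and 3.21 in vehicle. Its log2 fold change of 1.26 ± 0.33 was 0.86 ± 0.29 without JU replicate 1 and 0.48 with quality weights.

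The remaining genes named as higher were the ubiquitin ligase Rnf144a (0.32 ± 0.08), the splicing kinase Prpf4b (0.25 ± 0.07), Ttc14 (0.35 ± 0.09), the membrane protein Myadm (0.30 ± 0.08) and Tubgcp4, a subunit of the gamma-tubulin ring (0.31 ± 0.09), all as log2 fold changes with SE. Without JU replicate 1 these were 0.33 ± 0.09 for Rnf144a, 0.20 ± 0.06 for Prpf4b, 0.37 ± 0.10 for Ttc14, 0.23 ± 0.08 for Myadm and 0.27 ± 0.09 for Tubgcp4. With all libraries, their unadjusted p-values lay between 0.00136 and 0.00347. 10 genes named as lower in JU had log2 fold changes between -0.68 and -0.22. Ercc4, the XPF endonuclease of nucleotide excision repair (chromosome 16, 13109366 to 13152009), stood at 23.2, 20.4 and 21.1 CPM in JU, against 25.8, 27.9 and 25.5 in vehicle and 23.4 to 24.3 in sham (-0.29 ± 0.08, unadjusted p = 0.00283, and -0.35 ± 0.08 without JU replicate 1). The JU libraries lay below sham and the vehicle libraries above it. Dcbld1, a transmembrane protein (chromosome 10, 52233578 to 52321378), stood at 9.67, 9.20 and 9.53 CPM in JU, against 11.9, 11.7 and 12.02 in vehicle and 12.8 to 14.3 in sham (-0.33 ± 0.10, and -0.34 ± 0.11 without JU replicate 1). Nudt17, a nudix hydrolase, had 2.53, 3.78 and 3.18 CPM in JU and 5.40, 4.81 and 5.03 in vehicle (-0.68 ± 0.19, and -0.55 ± 0.20 without JU replicate 1).

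Decr2, Antkmt and Mief2 were named as lower too. Decr2, a peroxisomal reductase of unsaturated fatty acid oxidation, had 12.4, 18.2 and 18.6 CPM in JU and 25.6, 21.6 and 25.2 in vehicle (-0.56 ± 0.16, and -0.39 ± 0.14 without JU replicate 1). Antkmt, which methylates the mitochondrial adenine nucleotide carrier, had 17.7, 21.8 and 16.8 CPM in JU and 25.5, 33.2 and 23.1 in vehicle (-0.54 ± 0.16, and -0.50 ± 0.17 without JU replicate 1). Mief2, an adaptor of mitochondrial fission, had 14.3, 14.3 and 14.7 CPM in JU and 18.9, 16.9 and 17.8 in vehicle (-0.31 ± 0.11, and -0.30 ± 0.12 without JU replicate 1). Sham ranges were 25.6 to 28.2 CPM for Decr2 and 23.3 to 30.5 for Antkmt, above every JU library, and 13.2 to 16.3 for Mief2, which overlapped JU. The last 4 were Cabp7, a calcium-binding protein (-0.62 ± 0.17), Tbc1d17, which acts on Rab proteins (-0.22 ± 0.07), Tmem255a (-0.45 ± 0.15) and Morn2 (-0.54 ± 0.18). Without JU replicate 1 their fold changes were -0.49 ± 0.17 for Cabp7, -0.19 ± 0.07 for Tbc1d17, -0.35 ± 0.15 for Tmem255a and -0.59 ± 0.20 for Morn2. In edgeR 0 of the 20 passed after adjustment with all libraries, and without JU replicate 1 their adjusted p-values ran from 0.182 to 0.199. Slc25a37 was the 1 gene of the 20 that DESeq2 and voom with quality weights called.

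**Figure D3:**
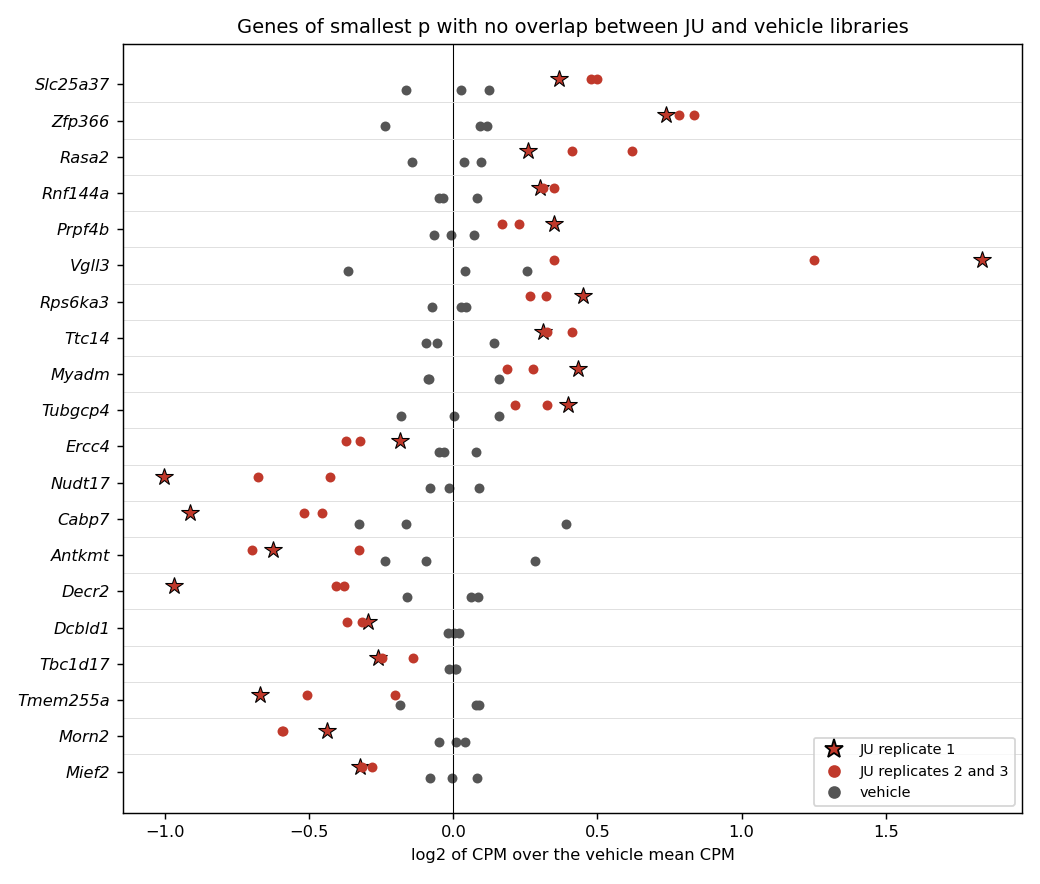
The 20 genes with the smallest p whose JU and vehicle libraries do not overlap, 10 higher (upper rows) and 10 lower (lower rows) in JU. The horizontal axis is the log2 of each library's CPM over the vehicle mean, with a star for JU replicate 1. Non-overlap was a condition for being shown; Vgll3 has the widest JU spread.

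Genes of reactive microglia and macrophages showed how far the JU libraries lay apart. These are cells that engulf debris, and the list of 24 genes, all tested, covers their surface receptors, lysosomal proteases and secreted factors. JU replicate 1 was above all vehicle libraries for 22 of 24, beside 41.7% of all genes, while JU replicates 2 and 3 were both below all vehicle libraries for 20 of 24, beside 20.3%. As list levels the JU libraries stood at 5.37, 0.32 and 2.06, the vehicle libraries at 3.22, 4.58 and 3.39 and the sham libraries between -0.14 and 0.10. The median log2 fold change was 0.11 with all libraries, with 12 of 24 positive and 0 at an unadjusted p under 0.05. Without JU replicate 1 it was -2.05, with 24 of 24 negative and 16 at an unadjusted p under 0.05, beside 12.4% of all genes.

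Spp1, osteopontin, a secreted protein of activated phagocytes (chromosome 5, 104435111 to 104441053), stood at 9558 CPM in JU replicate 1, 9.25 in JU replicate 2 and 46.5 in JU replicate 3. The vehicle libraries held 1818, 3045 and 997 CPM of Spp1. JU replicate 2 was below the lowest sham library, at 11.1 CPM, while JU replicate 1 was above the highest vehicle library. Ctsd, the lysosomal protease cathepsin D, stood at 16156, 549.9 and 2225 CPM in JU and 3978, 10254 and 5244 in vehicle, and Ctsb, cathepsin B, at 7093, 556 and 892 in JU and 1580.3, 4008 and 1717 in vehicle. JU replicate 3 lay between the sham and vehicle ranges for Ctsd and Ctsb.

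Homeostatic markers of microglia, which resting cells also carry, spread less. The list levels were 1.96, 0.19 and 1.40 in JU and 1.12, 1.98 and 1.74 in vehicle, and JU replicate 1 lay inside the vehicle range. All 12 members had negative fold changes with and without JU replicate 1, beside 59.7% and 50.4% of all genes with positive ones, and the medians were -0.24 and -0.72. The median rested on single libraries, being 0.05 without JU replicate 2 and -0.07 without vehicle replicate 2. 0 of 12 had an unadjusted p under 0.05 with all libraries and 2 of 12 without JU replicate 1, beside 12.4% of all genes that were then lower at that p. Cx3cr1, the fractalkine receptor (chromosome 9, 120048683 to 120068296), stood at 356, 86.3 and 196 CPM in JU and 207, 376 and 239 in vehicle.

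Infiltrating and border macrophages are cells that enter from blood or sit at the brain's surfaces, and 10 of their 11 tested genes were above all vehicle libraries in JU replicate 1, beside 41.7% of all genes. List levels were 4.21, -0.06 and 0.49 in JU and 1.89, 3.32 and 1.62 in vehicle, and the median log2 fold change was 0.50, against -1.85 without JU replicate 1 (11 of 12 tested, 11 negative). Cd5l, a secreted scavenger protein of macrophages, was the eleventh gene, with 26.997, 0.109 and 1.34 CPM in JU and 16.9, 184 and 25.1 in vehicle. Its highest value was in vehicle replicate 2 and not in JU replicate 1. F13a1, coagulation factor XIII made by macrophages, had 153, 7.06 and 7.25 CPM in JU and 24.1, 41.1 and 17.9 in vehicle, and Mrc1, the mannose receptor, 94.0, 9.41 and 12.01 in JU and 13.9, 30.7 and 12.4 in vehicle.

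**Figure D4:**
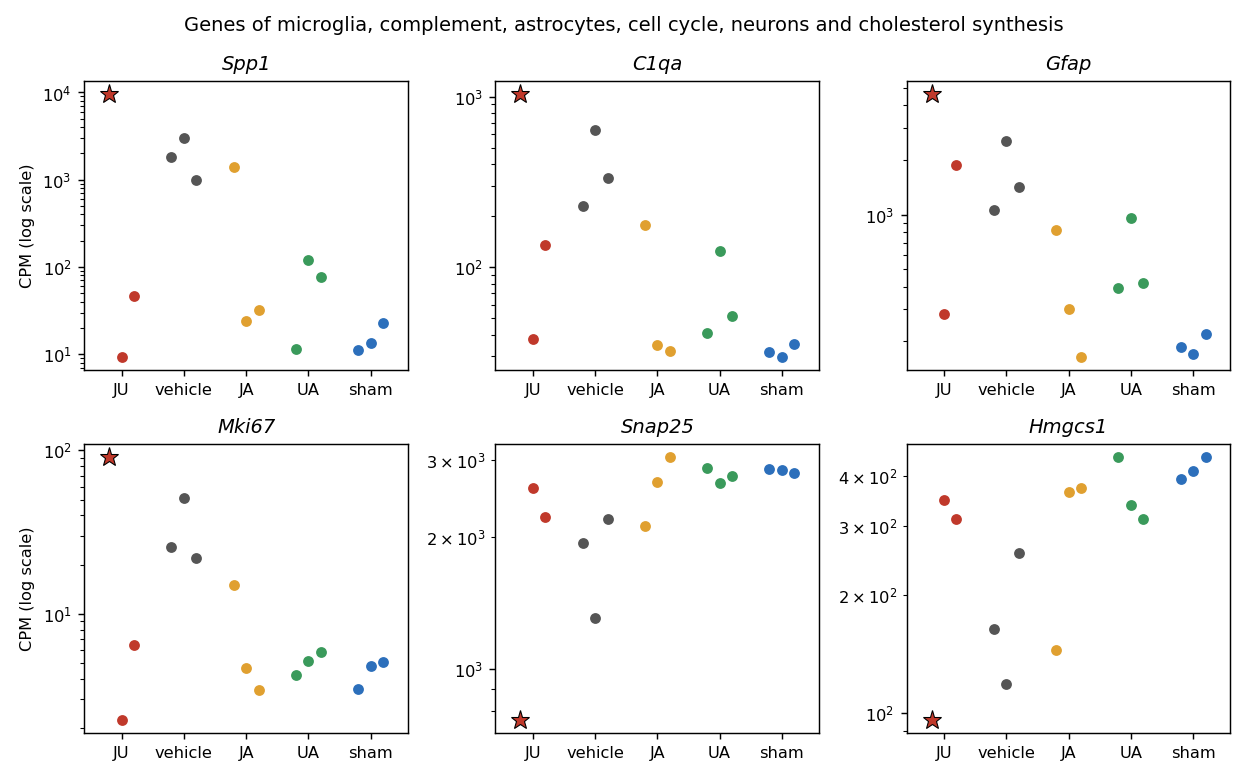
CPM (log scale) of 6 genes in every library, 1 point per library and the star for JU replicate 1. The star is the highest point for Spp1, C1qa, Gfap and Mki67 and the lowest for Snap25 and Hmgcs1, and the other JU points lie on the side of the vehicle points towards sham, except JU replicate 3 for Gfap.

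Complement, cytokine, interferon and antigen presentation genes were also mostly above the vehicle libraries in JU replicate 1. Complement tags debris and synapses for removal, and JU replicate 1 was above all vehicle libraries for 13 of 13 of its genes while JU replicates 2 and 3 were below them for 12 of 13, beside 41.7% and 20.3% of all genes. C1qa, a chain of the initiating complex C1q (chromosome 4, 136895916 to 136898844), stood at 1033, 37.9 and 134 CPM in JU and 228, 634 and 334 in vehicle, beside 29.7 to 35.4 in sham. Its partners C1qb and C1qc had the same order of libraries, with 909, 36.8 and 123 CPM and 903, 28.2 and 97.3 CPM in JU. The median of the complement list was 0.18, and -1.62 without JU replicate 1. For 18 tested chemokines and cytokines the medians were 0.08 and -1.52, for 14 interferon response genes 0.07 and -0.96, and for 13 genes of antigen presentation 0.16 and -1.29. B2m of that list stood at 520, 75.0 and 111 CPM in JU and 155, 258 and 185 in vehicle. H2-D1, a class I histocompatibility chain, stood at 475, 56.5 and 61.8 CPM in JU and 57.6, 80.2 and 115 in vehicle, where JU replicate 3 lay inside the vehicle range. The sham libraries were themselves spread for H2-D1, from 40.8 to 102 CPM.

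Of 16 reactive astrocyte genes, all 16 were above every vehicle library in JU replicate 1 and 13 below every vehicle library in JU replicates 2 and 3, beside 41.7% and 20.3% of all genes. Gfap was 1 of the 3 that were not below in both. Gfap, the intermediate filament protein of astrocytes (chromosome 11, 102887336 to 102897200), stood at 4617, 284 and 1881 CPM in JU and 1058, 2554 and 1411 in vehicle. JU replicate 3 thus held a vehicle level of Gfap beside a level of Spp1 below every vehicle library. Vim, vimentin, another intermediate filament protein, stood at 1342, 47.3 and 160.2 CPM in JU and 176, 623 and 215 in vehicle, with JU replicate 3 just under the vehicle range. The list of 16 genes had a median of 0.71 with all libraries (14 positive) and -1.48 without JU replicate 1 (16 negative, 10 at an unadjusted p under 0.05, beside 12.4% of all genes). Astrocyte genes of the healthy brain, the transporters and channels, stayed near sham, with list levels of 0.30, 0.08 and 0.23 in JU and -0.06, 0.24 and 0.01 in vehicle. Slc1a2 among them (chromosome 2, 102658239 to 102790784) had 1846, 2791 and 2751 CPM in JU and 2035, 1991 and 2134 in vehicle. JU replicates 2 and 3 were above both the vehicle range and the sham range, 2599.7 to 2653 CPM, and JU replicate 1 was below both. Its log2 fold change was 0.26 ± 0.15 with all libraries and, without JU replicate 1, 0.43 ± 0.08 (adjusted p = 0.182), and voom with quality weights gave an adjusted p of 0.0247.

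Matrix genes had the widest gap of the 37 lists between the medians with and without JU replicate 1. Of 18 genes of fibroblasts and extracellular matrix, JU replicate 1 was above all vehicle libraries for 17 and JU replicates 2 and 3 below them for 15, beside 41.7% and 20.3% of all genes. The median was 0.46, and -2.12 without JU replicate 1, when 17 of 18 had an unadjusted p under 0.05, beside 12.4% of all genes. Col3a1, type III collagen (chromosome 1, 45311538 to 45349706), stood at 995, 12.5 and 23.9 CPM in JU and 102, 389.9 and 80.3 in vehicle, beside 12.6 to 16.2 in sham. JU replicate 2 was just under the sham range. Fn1, fibronectin, stood at 1258, 74.9 and 120.5 CPM in JU and 443, 729 and 263 in vehicle.

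For all 16 cell cycle genes, JU replicate 1 was above and JU replicates 2 and 3 were below all vehicle libraries, beside 16.1% of all genes with that pattern. Mki67, a nuclear marker of cycling cells (chromosome 7, 135689784 to 135716450), stood at 91.2, 2.24 and 6.40 CPM in JU and 25.5, 51.1 and 22.1 in vehicle, beside 3.49 to 5.08 in sham. Top2a, the topoisomerase that untangles replicated DNA, stood at 63.3, 4.16 and 8.98 in JU and 16.7, 39.1 and 16.05 in vehicle. The medians of the list were -0.07 with all libraries and -2.09 without JU replicate 1, when 16 of 16 had an unadjusted p under 0.05, beside 12.4% of all genes.

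Col10a1, type X collagen, known from the cartilage of growth plates (chromosome 10, 34389981 to 34397085), was the gene that passed without JU replicate 1. It stood at 14.3, 0.274 and 0.199 CPM in JU and 10.3, 16.1 and 13.8 in vehicle, while the 9 JA, UA and sham libraries ran from 0.103 to 1.08 CPM. JU replicate 1 lay among the vehicle libraries, and JU replicates 2 and 3 among the others. The log2 fold change was -1.44 ± 1.06 with all libraries (unadjusted p = 0.200) and -5.79 ± 0.52 without JU replicate 1 (adjusted p = 0.000698, edgeR). Voom with quality weights put its adjusted p at 6.66e-05. No library was left out there, but JU replicates 1, 2 and 3 had weights of 0.0565, 0.678 and 4.07, so JU replicate 3 counted most.

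Lipid-handling genes split into a storage and efflux arm and a synthesis arm that stood in opposite order. Genes of storage and efflux, used by phagocytes loaded with myelin cholesterol, were above every vehicle library in JU replicate 1 for 12 of 12, and 10 were below every vehicle library in JU replicates 2 and 3, beside 41.7% and 20.3% of all genes. Plin2, a coat protein of lipid droplets (chromosome 4, 86626910 to 86670217), stood at 852, 9.20 and 19.3 CPM in JU and 129, 352 and 58.9 in vehicle, beside 7.29 to 9.53 in sham. Apoe, the main lipid carrier of the brain, stood at 13829, 1537 and 2308 CPM in JU and 3775, 7188 and 3933 in vehicle, and Abca1, which exports cholesterol to it, at 716, 51.6 and 102 in JU and 183, 418 and 139 in vehicle. The medians were 0.31 and, without JU replicate 1, -1.52.

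Genes of cholesterol synthesis and uptake, which in the adult brain serve astrocytes and myelin, had positive fold changes for 22 of 22 members, beside 59.7% of all genes. None had an unadjusted p under 0.05 with all libraries (0 of 22). The median was 0.33, and 0.12 without JU replicate 2. JU replicate 1 was below all vehicle libraries for 21 of 22 and JU replicates 2 and 3 above them for 20 of 22, beside 38.1% and 20.1% of all genes. Without JU replicate 1 the median was 0.66, with 21 of 22 positive and 18 at an unadjusted p under 0.05, beside 10.3% of all genes. Hmgcs1, the enzyme before the rate-limiting step (chromosome 13, 119690351 to 119708260), stood at 96.2, 349 and 311 CPM in JU and 164, 119 and 255 in vehicle, beside 395 to 448 in sham. JU replicates 2 and 3 lay between vehicle and sham. Srebf2, the transcription factor that drives the pathway, stood at 90.0, 241 and 226 CPM in JU and 149.8, 113 and 184 in vehicle.

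Pan-neuronal genes stood in the order opposite to those of reactive microglia and reactive astrocytes. All 14 pan-neuronal and synaptic genes were below every vehicle library in JU replicate 1, and 12 of 14 were above every vehicle library in JU replicates 2 and 3, beside 38.1% and 20.1% of all genes. Snap25 (chromosome 2, 136713439 to 136782428) stood at 763, 2598 and 2219.9 CPM in JU and 1937, 1307 and 2199 in vehicle, beside 2810.2 to 2872 in sham. JU replicate 2 was well above the vehicle libraries and JU replicate 3 barely so. Slc17a7, the vesicular glutamate transporter of cortical neurons, stood at 730.1, 1702 and 1605 CPM in JU and 1357, 1123 and 1497 in vehicle. Both JU replicates 2 and 3 were above the sham range, 1376 to 1487 CPM. The medians of the pan-neuronal list were 0.01 with all libraries and 0.33 without JU replicate 1, when 14 of 14 were positive and 10 had an unadjusted p under 0.05, beside 10.3% of all genes.

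Striatal projection neurons, which lie in the core territory of the middle cerebral artery, showed an overlap between JU replicates 2 and 3 and vehicle. List levels were -2.99, -0.21 and -1.10 in JU and -0.23, -1.83 and -1.44 in vehicle. JU replicate 1 was below all vehicle libraries for 16 of 16 genes, and JU replicates 2 and 3 were above all of them for 0 of 16, beside 38.1% and 20.1% of all genes. Ppp1r1b, the dopamine-regulated phosphatase inhibitor DARPP-32 (chromosome 11, 98348406 to 98357796), stood at 79.1, 491 and 255 CPM in JU and 408, 140.0 and 179 in vehicle, beside 405 to 494 in sham. Penk, the enkephalin precursor, stood at 48.3, 318 and 139.6 CPM in JU and 472, 74.5 and 95.5 in vehicle. Vehicle replicate 1 thus lay inside the sham range for Ppp1r1b and above it for Penk, whose sham libraries held 317 to 343 CPM. Interneuron genes had list levels of -1.73, 0.02 and -0.27 in JU and -0.48, -0.97 and -0.31 in vehicle, and cortical excitatory genes -1.10, 0.11 and 0.08 in JU and -0.20, -0.72 and -0.05 in vehicle.

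Oxidative phosphorylation, the mitochondrial production of ATP, stood in the order of the neuronal lists on a smaller scale. List levels of 23 nuclear-encoded genes were -0.55, -0.13 and -0.18 in JU and -0.27, -0.37 and -0.25 in vehicle, and JU replicates 2 and 3 were above all vehicle libraries for 20 of 23, beside 20.1% of all genes. Atp5b, the catalytic subunit of ATP synthase (chromosome 10, 128083307 to 128090388), stood at 941, 1312 and 1253 CPM in JU and 1163, 1079 and 1199.5 in vehicle, beside 1355 to 1382 in sham. The median was 0.01 and, without JU replicate 1, 0.12, with 3 of 23 at an unadjusted p under 0.05, close to the 10.3% of all genes. Myelin genes spread little, with list levels of -0.18, -0.34 and -0.08 in JU and -0.26, -0.12 and 0.06 in vehicle, and Mbp stood at 3348, 3355 and 4075 CPM in JU and 3397, 4229 and 4118 in vehicle.

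Bile acid genes bear on the compound named in the study's title, and few were measurable. Of 22 listed receptors, transporters and enzymes, 10 were tested, and the transporters Slc10a1, Slc10a2 and Slc51a had 0 counts in all 6 libraries. Gpbar1, the membrane receptor for bile acids also called TGR5, reached 0.101 CPM in JU replicate 1 and 0.0486 in vehicle replicate 2 and had 0 counts in the other 4, which is under the floor of detection. Cyp46a1, which turns cholesterol into the form that leaves the brain (chromosome 12, 108334268 to 108362234), stood at 99.9, 242 and 210.3 CPM in JU and 218, 146 and 193 in vehicle. Slco2b1, an organic anion carrier that microglia express in mice, stood at 96.8, 29.2 and 51.7 CPM in JU and 50.1, 86.4 and 55.7 in vehicle. JU replicate 1 was thus the lowest library for Cyp46a1 and the highest for Slco2b1. Slco1a4, a carrier of bile acids in the barrier endothelium (chromosome 6, 141805438 to 141856284), had no overlap, with 36.2, 41.4 and 40.2 CPM in JU and 33.3, 30.4 and 35.7 in vehicle, beside 38.9 to 47.1 in sham (log2 fold change 0.25 ± 0.14, unadjusted p = 0.104, and 0.30 ± 0.15 without JU replicate 1). Slco1a4 was added after its values were seen. Of the 10 tested bile acid genes, 1 had all JU libraries above all vehicle libraries, beside 2.45% of all genes. The median of the 10 was 0.09, and -0.08 without JU replicate 1.

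**Figure D5:**
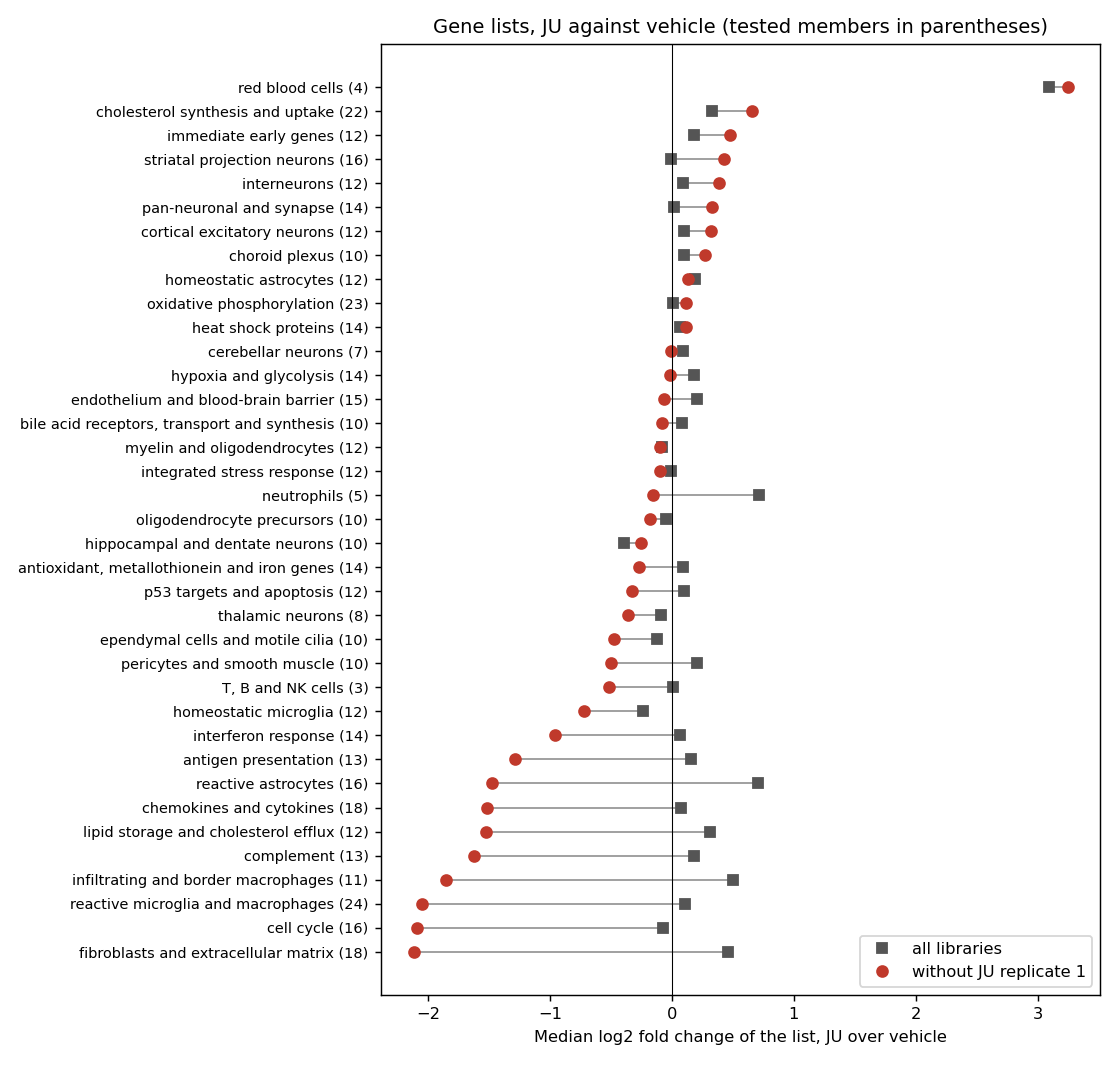
Median log2 fold change, JU over vehicle, of 37 gene lists, with tested members in parentheses. Squares stand for the fit with all libraries and circles for the fit without JU replicate 1; red blood cells are at 3.10 and 3.25, and fibroblasts and extracellular matrix at 0.46 and -2.12.

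Stress, hypoxia and apoptosis lists had medians near 0 with all libraries. Medians with and without JU replicate 1 were 0.06 and 0.12 for 14 heat shock genes, -0.01 and -0.10 for 12 genes of the integrated stress response, 0.18 and -0.01 for 14 genes of hypoxia and glycolysis, and 0.10 and -0.33 for 12 p53 targets and apoptosis genes. The 14 antioxidant, metallothionein and iron genes had medians of 0.09 and -0.27. Ftl1 of that list, the light chain of the iron store ferritin (chromosome 7, 45457944 to 45459886), stood at 3416, 362 and 454 CPM in JU and 822, 2044 and 719.9 in vehicle. Fth1, the heavy chain, stood at 3426, 1972 and 1886 CPM in JU and 1935, 2797 and 1950.2 in vehicle. JU replicates 2 and 3 lay in its sham range, 1825 to 2069 CPM, and so did vehicle replicates 1 and 3. Immediate early genes, which follow neuronal firing, had list levels of -0.93, 0.62 and 0.23 in JU and -0.34, -0.76 and 0.81 in vehicle, overlapping.

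The genes with the largest gap between JU replicate 1 and the other JU libraries describe what set that library apart. On the high side were Saa3, Atp6v0d2, Hal, Spp1, Gpnmb, Il1rn, Msr1, Lilr4b, Cfap77 and Adam8. Saa3, an acute-phase serum amyloid, stood at 54.2 CPM in JU replicate 1, with 0 and 0.0496 in the other JU libraries, and at 2.04, 4.90 and 0.958 in vehicle. Gpnmb, a glycoprotein of lipid-laden phagocytes, stood at 3368, 5.14 and 16.5 CPM in JU and 532, 1413 and 231 in vehicle, and Msr1, a scavenger receptor, at 287, 0.383 and 1.69 in JU and 42.9, 111 and 17.1 in vehicle. Il1rn, the interleukin 1 receptor antagonist, Atp6v0d2, a proton pump subunit, Hal, histidine ammonia-lyase, Lilr4b, an inhibitory receptor, and the protease Adam8 were also highest there, with 49.7 to 171 CPM in JU replicate 1, at most 1.29 in the other JU libraries and 1.05 to 55.7 in vehicle. The value of Lilr4b is uncertain, because it has a near-identical neighbour. Cfap77, a protein of motile cilia, stood at 47.3 CPM in JU replicate 1 and at most 0.834 CPM in the other 14 libraries, vehicle included.

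On the low side, 10 genes were chosen in the same way. Cartpt, a neuropeptide precursor, stood at 0.456, 10.8 and 11.5 CPM in JU and 12.9, 2.82 and 8.96 in vehicle. Cbln4, a synaptic organizer, stood at 1.42, 19.6 and 18.02 CPM in JU and 11.7, 6.26 and 13.7 in vehicle, and Egr4, an activity-regulated transcription factor, at 1.72, 32.9 and 20.2 in JU and 12.1, 6.26 and 22.9 in vehicle. Lhx8, a transcription factor of forebrain cholinergic neurons, had 0 counts in JU replicate 1 and 0.728 to 2.55 CPM in vehicle. Hcrtr1, an orexin receptor, and Chrnb3, a nicotinic receptor subunit, were at or near the floor of detection in JU replicate 1, with 0.0507 and 0.203 CPM. Tnnc1 and Myh6, a troponin and a myosin best known from muscle, were also among them, with 1.37, 17.7 and 20.1 CPM and 0.355, 4.32 and 4.02 CPM in JU. In vehicle Tnnc1 stood at 3.57, 1.75 and 7.81 CPM and Myh6 at 1.17, 1.51 and 1.87, below JU replicates 2 and 3 in every library.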

How the data were processed

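The authors deposited 1 table that gives for each gene and library a read count in whole numbers and an FPKM value (fragments scaled by transcript length and depth), per the file headers. Tools named in the submitters' processing notes are HISAT2, Trimmomatic, DESeq and Cufflinks, with the build GRCm38 (mm10) and no roles. What counted the reads, and with which strand setting, is not given in the sources used here. 1 value column, whose name begins with JU, matched no sample's labels and was not used. The sources used here do not say whether it is a further JU library.

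Raw counts were fitted once over 15 libraries, with group as the term, in edgeR 4.0.16 (R 4.3.3), with TMM scaling (0.975 to 1.04), robust quasi-likelihood tests and Benjamini-Hochberg adjustment over 14877 genes, at a threshold of 0.05. The fit had 10 residual degrees of freedom. A standard error is the log2 fold change over the square root of F. CPM used TMM-scaled totals, and list levels log2 CPM with a prior count of 2. The authors' FPKM values served in an alternative, as log2(FPKM + 0.1) in limma 3.58.1, beside voom and DESeq2 1.42.0. The procedure was run on simulated counts in which no library stood apart as JU replicate 1 does. How the tests behave with such a library was thus not tested.

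Genes named are, with a mean of at least 1 CPM and no predicted symbol, the 10 with the smallest p in each direction among non-overlapping genes, the 3 most abundant tested members of a list, the 10 with the largest gap of JU replicate 1 in each direction, and those past the threshold without it. Not every one is reported. Alas2, Hba-a2, Slco1a4, Gpbar1, Azin1 and Rpl26 were added after their values were seen. The 37 lists hold 502 genes, of which 501 were in the table and 467 tested, and 3 belong to more than 1 list. Members and lists were chosen with earlier results of these data known. Coordinates and promoters come from RefSeq for GRCm38.p6, which matched 18801 genes by Entrez identifier. All red blood cell genes were in the promoter table.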

Additional observations from a re-analysis of the deposited data

How the results depend on the processing

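The count of genes past the threshold was 0 with all libraries and 0 with DESeq2's size factors as scaling, no filter on low counts, filterByExpr, only the 6 JU and vehicle libraries, plain voom and limma on FPKM, where 90 to 380 genes had an unadjusted p under 0.05. The added setting without JU replicate 1 and vehicle replicate 2, chosen after seeing the data, gave 1 (lower). DESeq2 gave 2 (Azin1 and Slc25a37, both higher), the JU and vehicle libraries alone without JU replicate 1 gave 2 (Col10a1 lower, Rpl26 higher), and voom with quality weights gave 25 (4 higher, 21 lower). Leaving out each JU or vehicle library in turn gave 0 to 1, the 1 being Col10a1 without JU replicate 1, and 201 to 3364 genes at an unadjusted p under 0.05. With replicate number as a block the count was 0 (233 at an unadjusted p under 0.05). Libraries of the same replicate number in JU and vehicle had correlations of deviations from their group means of -0.54, -0.75 and 0.51. The library names in the sample titles carry other numbers. By those, JU replicate 1 shares its number with vehicle replicate 2 (0.79) and JU replicate 3 with vehicle replicate 3 (0.51). With 3 libraries a group and JU replicate 1 far from the others, these values cannot decide whether libraries were paired.

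Fold changes of the 29 genes reported with a test kept their sign in all 464 values over the alternatives; most were chosen because their JU and vehicle libraries did not overlap, which fixes the sign when a library is left out. Of 40 genes described by library, 34 changed sign at least once. List medians moved by more than 1 SD in 42 of 592 values, 34 of them in settings without JU replicate 1. That SD, of list levels within the JU and vehicle groups, includes JU replicate 1. Medians could change sign within it with all libraries kept. From the main fit to plain voom, reactive microglia went from 0.11 to -1.13, reactive astrocytes from 0.71 to -0.29 and matrix genes from 0.46 to -0.48. Red blood cells (3.10 and 4.68) and cholesterol synthesis (0.33 and 0.23) kept their sign. Genes under the floor of detection, 0.147 to 0.161 CPM, allow no fold change at this depth.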

Other observations

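Choroid plexus genes, which mark the tissue that secretes cerebrospinal fluid, were low in a single library of this comparison. Ttr, transthyretin, stood at 374, 627 and 1155 CPM in JU and at 9.23, 1108 and 1020.0 in vehicle, and the list level was -0.25, -0.05 and 0.78 in JU and -2.66, 0.62 and 0.60 in vehicle. Vehicle replicate 1 alone was low, and the groups otherwise overlapped. Kl, the ageing-related hormone receptor partner Klotho, stood at 16.7, 21.4 and 32.6 CPM in JU and 5.81, 29.3 and 32.1 in vehicle.

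2 genes outside the lists were called in single alternatives. Rpl26, a protein of the large ribosomal subunit (chromosome 11, 68901566 to 68904534, GRCm38.p6), stood at 248, 173 and 173 CPM in JU and 45.1, 45.0 and 41.0 in vehicle, a log2 fold change of 2.18 ± 0.86 (SE, unadjusted p = 0.0253, edgeR) and 1.98 ± 0.99 without JU replicate 1. The JU and vehicle libraries did not overlap, but the other groups were divided, with 31.9, 34.4 and 151 CPM in JA, 185, 41.2 and 149.6 in UA and 40.6, 36.1 and 311 in sham. Processed copies of ribosomal protein genes are common, and reads could have been assigned to either. Azin1, an inhibitor of ornithine decarboxylase antizyme (chromosome 15, 38487430 to 38519294), stood at 155, 161 and 159 CPM in JU, 139, 129 and 139.6 in vehicle and 203 to 206 in sham (0.22 ± 0.07, unadjusted p = 0.00544, and 0.23 ± 0.07 without JU replicate 1).

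Thalamic, hippocampal and cerebellar neuron lists, which mark where a sample was taken, overlapped between the groups. Their list levels were -0.30, -0.84 and -0.46 in JU and -0.48, -0.02 and -0.30 in vehicle for thalamus, -0.93, -0.43 and -0.39 in JU and -0.43, 0.18 and -0.21 in vehicle for hippocampus, and 0.09, 0.10 and 0.20 in JU and 0.23, 0.37 and 0.17 in vehicle for cerebellum. Prkcd, a kinase abundant in thalamic neurons, stood at 82.6, 11.3 and 24.5 CPM in JU and 29.3, 67.7 and 31.8 in vehicle, and was itself divided in sham, at 68.2, 64.9 and 16.9.

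Pericyte and smooth muscle genes had medians of 0.21 with all libraries and -0.50 without JU replicate 1, and ependymal and motile cilia genes -0.12 and -0.47. Oligodendrocyte precursor genes had medians of -0.05 and -0.18. Foxj1, which switches on motile cilia genes, stood at 36.1, 7.61 and 14.3 CPM in JU and 16.01, 28.5 and 13.9 in vehicle.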
